A study of Mus musculus with 11 samples.

Results

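Nrap, Xirp1, Xirp2, Flnc, Col22a1, Ankrd1, Ankrd2 and Csrp3 are muscle genes whose products anchor the contractile apparatus at its attachment sites or sit on it as strain-linked proteins. Their RNA levels were compared in injured muscle of old mice given young serum, with or without its vesicles, or saline. They were taken by symbol from the deposited expression table, and 8 of 8 were found among its 18269 genes and among the 13187 genes that passed the filter on low values. The choice was made with the differences between these same libraries known, so those differences are given as a description. All 11 libraries came from the tibialis anterior of C57BL/6 mice aged 21 to 24 months in a muscle injury model. The groups were EV-depleted young serum (3 libraries, numbered 2, 3 and 4), young serum (4 libraries, numbered 1 to 4) and saline as the control injection (4 libraries, numbered 2, 3, 4 and 6). EVs are extracellular vesicles, the membrane-bound particles that cells shed into body fluids, and the study asks whether the action of young serum on old muscle needs them. The kind of injury, the time after it, the number of animals and whether each library is a separate animal are not given in the sources used here, so the spread between libraries may be in part technical.

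A muscle fibre hands its force to the tendon at the myotendinous junction, where the actin filaments of the last sarcomere end in a folded membrane anchored to a specialised matrix. Actin-binding proteins of these sites are also used while new myofibrils are laid down and where sarcomeres are repaired. A second set of proteins sits on titin and at the Z-disc and changes in amount when a fibre is stretched, damaged or overloaded. Nrap, the nebulin-related anchoring protein, bundles actin in myofibril precursors and at junctions. Xirp1 and Xirp2 carry the Xin repeats that bind actin, Flnc is the muscle filamin that crosslinks actin at the Z-disc and the membrane, and Col22a1 encodes a collagen of the myotendinous junction. Ankrd1 and Ankrd2 are ankyrin repeat proteins that bind the N2A region of titin, and Csrp3 is the muscle LIM protein of the Z-disc.

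The reads counted in the genes of the table were estimated at 36.4 to 42.2 times 1e+06 per library. The estimate rests on the size of the smallest steps between values, which only 75.6% to 79.0% of the low values followed. Levels are reads per 1000000 of the library (CPM). Those of fast fibre markers summed to between 121942 and 147729 over the 11 libraries of this mostly fast muscle. Slow fibre markers set 1 library apart, since their sum was 5545 CPM in saline 6 and 242 to 2229 CPM in the other libraries. Adipocyte markers set apart another, with 5309 CPM in saline 4 against at most 497 CPM in any other saline library. Tendon cell markers summed to 144 to 204 CPM with EV-depleted young serum, 157 to 257 CPM with young serum and 89.6 to 201 CPM with saline. Regenerating fibre markers summed to 58.6 to 71.5, 64.7 to 128 and 57.7 to 71.2 CPM in the same order of groups, and 4 of 7 cardiac markers were in the table, with sums of 7.60 to 20.9 CPM. In bulk RNA, fewer cells of a type and less RNA per cell cannot be told apart.

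The promoter windows of RefSeq on GRCm38.p6 were searched for sites of factors known to act in stretched or growing muscle. The window searched was the 250 bases before a transcript start, on both strands, and 6 of the 8 genes were matched. The motifs were the MCAT box of TEAD factors (CATTCC), the E-box of MyoD-like factors (CANNTG), the CArG box of SRF and the MEF2 site. MCAT stood in 12.6% of all 32851 windows, the E-box in 66.2%, the CArG box in 1.47% and the MEF2 site in 2.92%. The 4 matches to MCAT or MEF2 are shown because these motifs were found in few of the windows of the 8 genes and of all genes, with the matched bases in capitals. The Ankrd1 matches read on the opposite strand and lie inside the first exon, in the 5′ UTR, of 1 GENCODE M21 transcript that starts farther upstream. The Flnc match spans the start of a second RefSeq transcript at 29433153, whose own window holds no match.
Xirp2, MEF2, chr2:67445918-67445947, + strand: agctcagttcCTAAAAATAGgtgctaggtt
Flnc, MCAT, chr6:29433140-29433169, + strand: cgggccgggcggCATTCCtgggaggccggc
Ankrd1, MCAT, chr19:36120037-36120066, − strand: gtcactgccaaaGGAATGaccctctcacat
Ankrd1, MCAT, chr19:36119950-36119979, − strand: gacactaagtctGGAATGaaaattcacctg

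The matched bases began 74 bases before the start in Xirp2, 104 in Flnc, and 210 and 123 in Ankrd1. No CArG box was found in the windows of the 6 genes. E-boxes numbered 3 in Nrap, 3 in Ankrd2, 2 (overlapping each other) in Xirp2, 1 in Ankrd1, 0 in both windows of Flnc and 4 in each of both windows of Csrp3. These are matches of letters and say nothing of binding in these muscles.

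Nrap, on chromosome 19 from 56320035 to 56390037 of mm10 on the minus strand, had the largest differences from saline relative to their SE. Its level was 1614, 1650 and 1946 CPM in the 3 EV-depleted young serum libraries. It was 1598, 1545, 1583 and 1762 CPM in the 4 young serum libraries, and 1062, 995, 796 and 958 CPM in the 4 saline libraries. Every serum library of either kind lay above every saline library, and the serum groups overlapped each other. On the log2(CPM + 1) scale, EV-depleted young serum minus saline was 0.87 ± 0.12 (SE), and young serum minus saline was 0.77 ± 0.11. The 2 serum groups differed by 0.10 ± 0.12. The span of Nrap overlaps that of Habp2 on the other strand by 788 bases, and Habp2 stood at 2.04 to 6.61 CPM over all libraries, far below Nrap.

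Xirp1 (chromosome 9, 120013755 to 120023598, minus strand) had a graded order of group means, as did Nrap, Xirp2, Col22a1, Flnc and Ankrd1. Its level was 198, 147 and 221 CPM with EV-depleted young serum, against 142, 134, 125 and 165 CPM with young serum and 110, 96.7, 83.4 and 92.8 CPM with saline. No saline library reached any serum library, and EV-depleted young serum 3 lay below young serum 4. The log2 differences were 0.96 ± 0.15 for EV-depleted young serum minus saline, 0.56 ± 0.14 for young serum minus saline and 0.40 ± 0.15 for EV-depleted young serum minus young serum. Xirp1 lies wholly inside the span of the chemokine receptor gene Cx3cr1 on the same strand, which stood at 0.10 to 0.80 CPM.

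Xirp2, its longer relative, is annotated on chromosome 2 on the plus strand from 67446002 to 67526614 in GENCODE M21. The deposited span runs from 67173834 to 67526615, so reads of the stretch upstream may be counted in it. It had 2126, 1343 and 2306 CPM with EV-depleted young serum, 1583, 1726, 1747 and 1669 CPM with young serum, and 1497, 1126, 1095 and 796 CPM with saline. The young serum libraries had a coefficient of variation of 4.35%, the smallest of any group of the 8 genes, and all lay above saline. EV-depleted young serum 3 lay within the saline range, below saline 2. The log2 differences were 0.77 ± 0.22, 0.61 ± 0.20 and 0.16 ± 0.22 in the order EV-depleted young serum minus saline, young serum minus saline and EV-depleted young serum minus young serum. The last was 0.01 without EV-depleted young serum 4 and 0.40 without EV-depleted young serum 3.

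Flnc, on chromosome 6 from 29433256 to 29461883 on the plus strand, differed most from saline among the actin-binding members. Its values were 1009, 890 and 1636 CPM with EV-depleted young serum, 1048, 919, 803 and 1150 CPM with young serum and 666, 573, 448 and 435 CPM with saline. Both serum groups lay wholly above saline, and EV-depleted young serum 4 was the highest library by a wide margin. The log2 difference from saline was 1.12 ± 0.22 for EV-depleted young serum and 0.89 ± 0.20 for young serum. EV-depleted young serum minus young serum was 0.23 ± 0.22, and without EV-depleted young serum 4 it was -0.04.

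**Figure D1:**
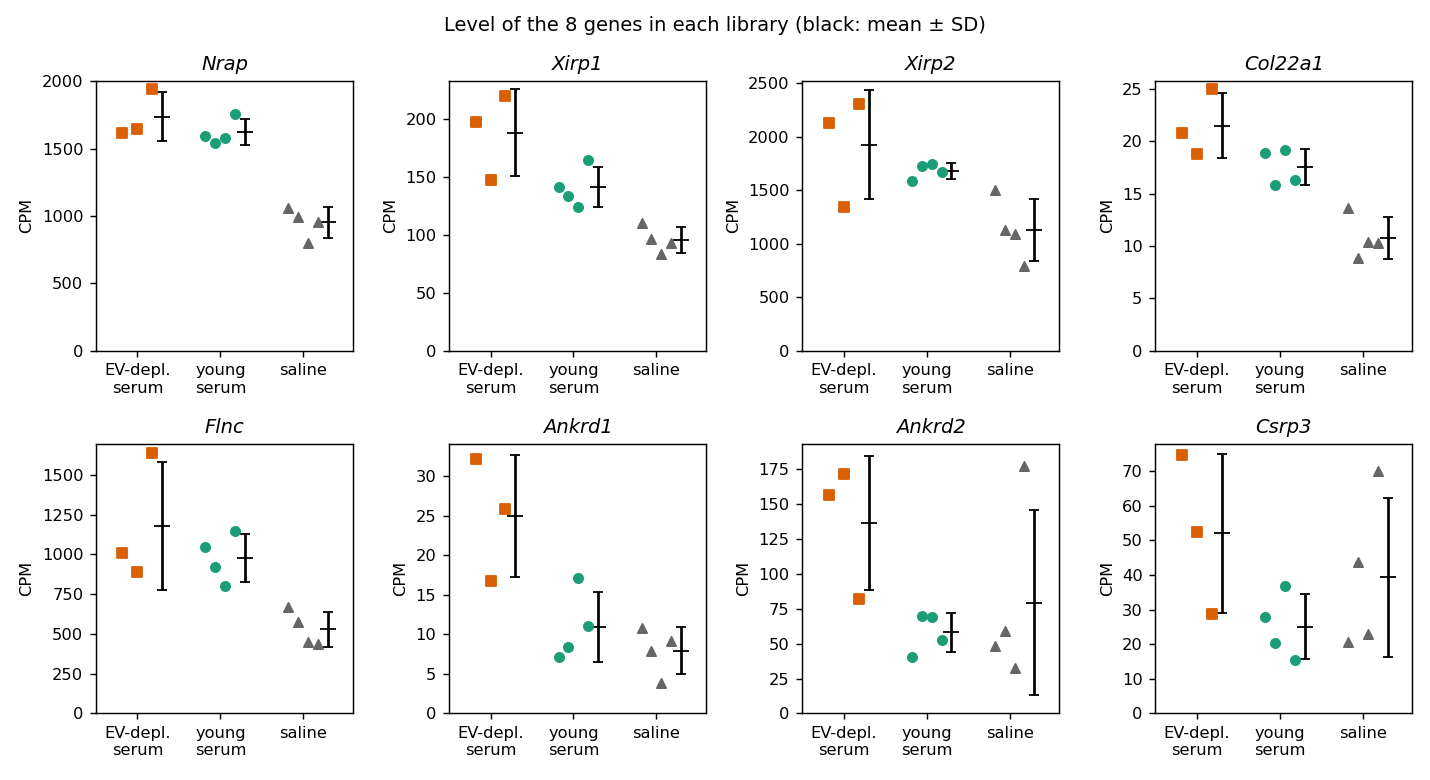
Level of each of the 8 genes in CPM (linear axes from 0) for the 3 EV-depleted young serum libraries (squares), the 4 young serum libraries (circles) and the 4 saline libraries (triangles), with the mean ± SD beside each group in black. Nrap, Xirp1, Col22a1 and Flnc lie above saline in every serum library, while Ankrd2 and Csrp3 reach 177 and 70.0 CPM in saline 6.

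Col22a1, on chromosome 15 from 71795795 to 72034227 on the minus strand, was the least abundant member per transcript length. It had 20.8, 18.8 and 25.0 CPM with EV-depleted young serum, 18.9, 15.9, 19.2 and 16.3 CPM with young serum, and 13.6, 8.88, 10.4 and 10.3 CPM with saline. The groups of libraries with serum and with saline did not overlap, and the 2 serum groups did. The log2 differences were 0.94 ± 0.16 for EV-depleted young serum minus saline, 0.67 ± 0.15 for young serum minus saline and 0.27 ± 0.16 for EV-depleted young serum minus young serum. The tendon cell marker sums given above overlapped over all 3 groups. The highest of them were in young serum 1 and 2, at 257 and 249 CPM, where Col22a1 was 18.9 and 15.9 CPM. The lowest were in saline 4 and saline 2, at 89.6 and 113 CPM, where Col22a1 was 10.4 and 13.6 CPM. The part of tendon cells in the Col22a1 differences was not tested.

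Like all 8 genes, Ankrd1, on chromosome 19 from 36111961 to 36120099 on the minus strand, had its highest mean with EV-depleted young serum. EV-depleted young serum libraries had 32.2, 16.8 and 25.8 CPM, against 7.07, 8.41, 17.1 and 11.1 CPM with young serum and 10.8, 7.90, 3.88 and 9.20 CPM with saline. All 3 EV-depleted libraries exceeded all saline libraries, and young serum overlapped both other groups, since young serum 3 lay just above EV-depleted young serum 3. The log2 difference was 1.56 ± 0.34 for EV-depleted young serum minus saline, the largest of the 8 genes. It was 1.15 ± 0.34 for EV-depleted young serum minus young serum and 0.42 ± 0.32 for young serum minus saline, and this last value was 0.15 without saline 4.

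Ankrd2, on chromosome 19 from 42036000 to 42045110 on the plus strand, had 157, 171 and 81.7 CPM with EV-depleted young serum. It had 40.5, 69.5, 69.4 and 52.7 CPM with young serum and 48.5, 59.3, 32.5 and 177 CPM with saline. The highest of the 11 values was saline 6, and the other 3 saline libraries lay below every EV-depleted library. EV-depleted young serum minus young serum was 1.18 ± 0.47 with no overlap, and EV-depleted young serum minus saline was 1.01 ± 0.47, or 1.496 without saline 6. Young serum minus saline was -0.17 ± 0.44, and it turned to 0.31 without saline 6.

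Csrp3, on chromosome 7 from 48830398 to 48848033 on the minus strand, varied widely within its groups. It had 74.7, 52.5 and 28.8 CPM with EV-depleted young serum, 27.7, 20.3, 36.8 and 15.4 CPM with young serum, and 20.6, 43.6, 23.0 and 70.0 CPM with saline. Each pair of groups overlapped, and saline 6 was again the highest saline library. The log2 differences were 0.46 ± 0.44 for EV-depleted young serum minus saline, -0.53 ± 0.41 for young serum minus saline and 0.99 ± 0.44 for EV-depleted young serum minus young serum. Without saline 6, young serum minus saline was -0.20. EV-depleted young serum minus saline ranged with 1 library left out, between 0.16 without EV-depleted young serum 2 and 0.83 without EV-depleted young serum 4, and was 0.79 without saline 6.

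Slow fibre markers moved in part with Ankrd2 and Csrp3, both of which are known to be richer in slow than in fast fibres. All 8 slow fibre markers were detected, and none was at 0. Their sum was 1420, 2229 and 1811 CPM with EV-depleted young serum, 424, 725, 1652 and 242 CPM with young serum, and 477, 256, 340 and 5545 CPM with saline. Myh7, the slow myosin heavy chain, had 340, 563 and 512 CPM with EV-depleted young serum, 111, 192, 523 and 22.0 CPM with young serum, and 48.8, 43.2, 67.8 and 944 CPM with saline. The libraries with the highest marker sums, saline 6 and EV-depleted young serum 3, were also the 2 highest for Ankrd2. Young serum 3 was the highest young serum library for these markers, for Ankrd1 and for Csrp3, and lay level with the highest, young serum 2, for Ankrd2. Other libraries went the other way. Saline 3 had the lowest marker sum of the saline libraries, but more Ankrd2 and Csrp3 than saline 2 and saline 4. EV-depleted young serum 4 had the third highest sum, but less Csrp3 than saline 3. The part of slow fibres in the differences of these genes was not tested.

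**Figure D2:**
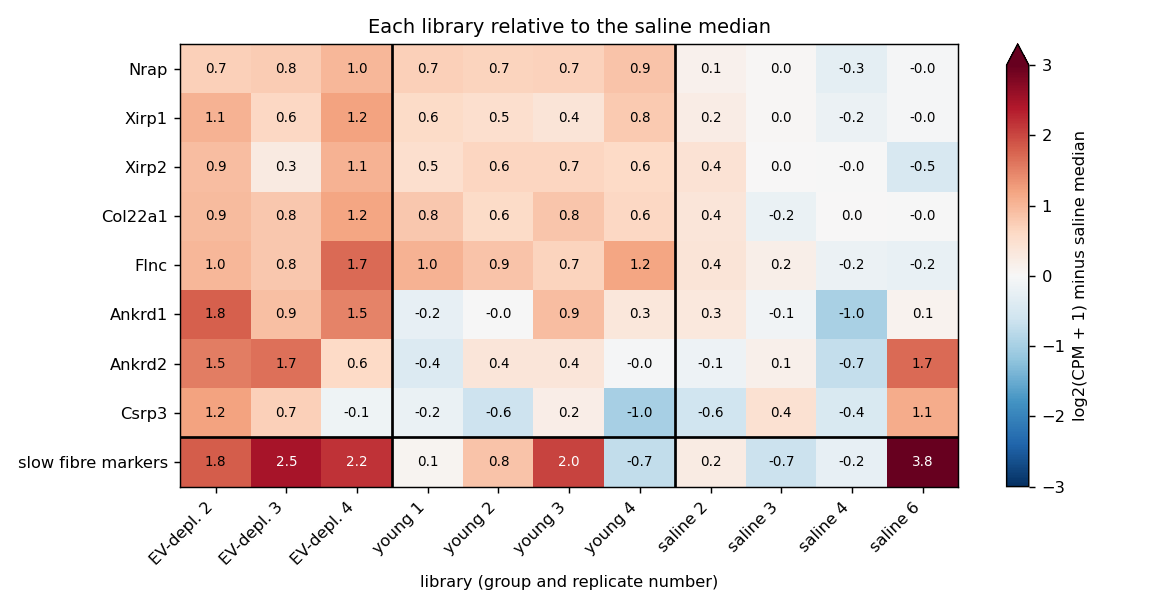
Difference of each library (columns) from the median of the 4 saline libraries on the log2(CPM + 1) scale, for the 8 genes and for the sum of the slow fibre markers (bottom row). Red marks values above the saline median and blue values below it. Saline 6 stands out from all other libraries for the slow fibre markers, and only from the other saline libraries for Ankrd2 and Csrp3.

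Per kilobase of the longest GENCODE M21 transcript, the order of the levels was close to the same in the 3 groups. Nrap was first, at 316 ± 33.1 CPM per kilobase with EV-depleted young serum, 295 ± 17.4 with young serum and 173 ± 20.5 with saline (SD, n = 3, 4 and 4), and its lowest library in each group lay above the highest library of any other member, except that Ankrd2 in saline 6 (156) exceeded Nrap in saline 4 (145). Xirp2 came next, at 161 ± 42.8, 140 ± 6.11 and 94.2 ± 24.0 CPM per kilobase in the same groups. Flnc, at 130 ± 44.4, 108 ± 16.7 and 58.7 ± 12.2 CPM per kilobase, and Ankrd2, at 120 ± 42.3, 51.0 ± 12.4 and 69.8 ± 58.2, changed places between young serum and saline. The libraries of Xirp2, Flnc and Ankrd2 overlapped with EV-depleted young serum and with saline, although within each of those libraries Xirp2 was above Flnc. Csrp3 and Xirp1 followed, at 57.8 and 32.3 CPM per kilobase with EV-depleted young serum, 27.8 and 24.2 with young serum and 43.7 and 16.4 with saline, and their libraries overlapped in the 2 serum groups. Ankrd1 stood at 12.3, 5.40 and 3.93 CPM per kilobase and Col22a1 at 2.44, 1.996 and 1.23, below all the others in each group.

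EV-depleted young serum against saline asks what young serum does to old muscle without its vesicles. All 8 genes had a higher mean on the log2 scale with EV-depleted young serum, with a median difference of 0.95 against -0.00 over all genes tested. In 5 of 8 (Nrap, Xirp1, Col22a1, Flnc and Ankrd1) no library of 1 group reached the other, where 3.39% of all genes tested were higher and 4.03% lower without overlap. The genes were chosen on these values, so nothing is read from that count. By limma with Benjamini-Hochberg adjustment over the 13187 genes, 0 genes passed an adjusted p of 0.05, the smallest adjusted p was 0.0684, and 1593 genes had an unadjusted p under 0.05. Leaving out 1 library at a time moved the count of genes passing to at most 5, without saline 2.

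Young serum against saline asks the same of whole young serum. The 5 genes of the attachment sites and the junction were higher with young serum, by 0.56 to 0.89 on the log2 scale, and none of their libraries overlapped saline. Ankrd1 was higher by 0.42, and Ankrd2 and Csrp3 had lower means with young serum, with overlap in all 3. The median of the 8 was 0.58, against -0.02 over all genes tested, and 5 of 8 did not overlap, where 6.09% of all genes were higher and 6.08% lower without overlap. By the same limma fit 0 of 13187 genes passed, the smallest adjusted p was 0.0767, and 2890 genes had an unadjusted p under 0.05. Without saline 2, 251 genes passed.

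EV-depleted young serum against young serum asks what removing the vesicles changes. The log2 differences were 0.10 to 0.40 for Nrap, Xirp1, Xirp2, Col22a1 and Flnc, with SEs of 0.12 to 0.22. They were 1.15 ± 0.34 for Ankrd1, 1.18 ± 0.47 for Ankrd2 and 0.99 ± 0.44 for Csrp3. These last also have the shortest transcripts of the 8, at 2020, 1138 and 899 bases. In this comparison 52.8% of genes of 2000 to 4000 bases were higher, and 65.2% of those of 1000 to 2000 bases. The share was 71.3% up to 1000 bases and 23.9% over 8000 bases. The median log2 differences of these classes were 0.01, 0.06, 0.10 and -0.10. Values with the length trend removed are given below. The median of the 8 was 0.34, against 0.00 over all genes. Ankrd2 alone among them did not overlap, 1 of 8, where 4.16% of all genes were higher and 1.96% lower without overlap. By limma 0 genes passed, the smallest adjusted p was 0.99998, and 294 genes had an unadjusted p under 0.05. Both comparisons with saline share the same 4 saline libraries, and this one shares its libraries with both, so the 3 are not independent.

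**Figure D3:**
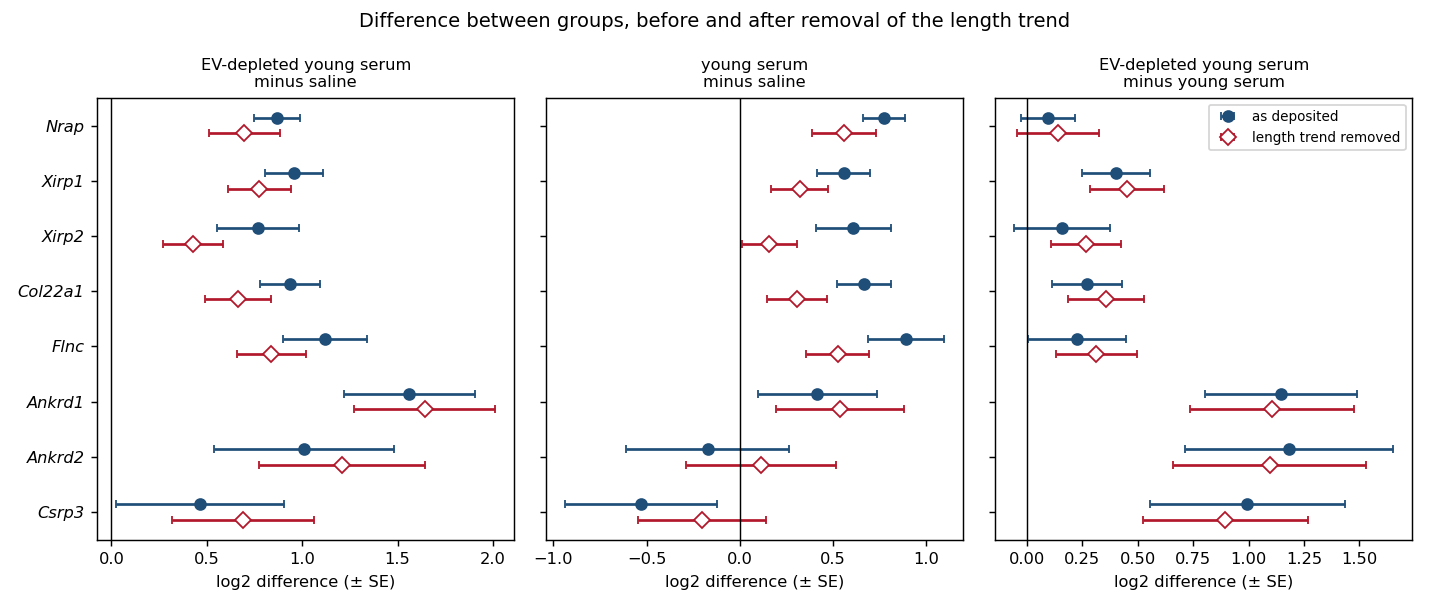
Difference between groups on the log2(CPM + 1) scale, with its SE, for each of the 8 genes in the 3 comparisons, from the values as deposited (filled circles) and after removal of the transcript length trend within each library (open diamonds). The long genes at the top move towards 0 in both comparisons with saline, and Ankrd1 and Ankrd2 stay above 1 with EV-depleted young serum in both comparisons that include it.

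Transcript length moved with these differences. Over the 690 tested genes with transcripts over 8000 bases, the median log2 difference was 0.30 for EV-depleted young serum minus saline and 0.39 for young serum minus saline. Over the 1169 genes of up to 1000 bases it was -0.29 and -0.41. For each library, the deviation of the log2 level from the gene's mean over the 11 libraries was fitted on log2 length. The slope was 0.0309, -0.0880 and 0.165 for EV-depleted young serum, and 0.0758, 0.113, 0.0257 and 0.113 for young serum. For saline it was 0.0126, -0.107, -0.0219 and -0.319, steepest in saline 6. Xirp2 (11979 bases), Flnc (9038) and Col22a1 (8809) belong to the longest class, Xirp1 (5839) and Nrap (5501) to the next, and Ankrd1 (2020), Ankrd2 (1138) and Csrp3 (899) to shorter ones. Of genes over 8000 bases, 21.7% were higher with young serum without overlap, and 4.35% with EV-depleted young serum. EV-depleted young serum 4, the library with the steepest positive slope, was the highest of all 11 for Nrap, Xirp1, Xirp2, Col22a1 and Flnc.

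A fit with the length trend taken out of each library was therefore added, a choice made after seeing the data. For EV-depleted young serum minus saline the differences were then 0.70 for Nrap, 0.77 for Xirp1, 0.43 for Xirp2, 0.66 for Col22a1 and 0.84 for Flnc, each without overlap. Ankrd1 was at 1.64, also without overlap, and Ankrd2 and Csrp3 at 1.21 and 0.69, with overlap, so that 6 of 8 did not overlap and the median was 0.74. For young serum minus saline, Nrap kept 0.56 and Flnc 0.53, without overlap. Xirp1 at 0.32, Xirp2 at 0.16 and Col22a1 at 0.31 then overlapped saline. Ankrd1 was at 0.54, Ankrd2 at 0.12 and Csrp3 at -0.20, and the median of the 8 was 0.31. For EV-depleted young serum minus young serum the median was 0.40, and Xirp1, at 0.45, joined Ankrd2, at 1.10, in not overlapping. Ankrd1 was then at 1.11 and Csrp3 at 0.90, with overlap. In this fit 569 (4.395%) of 12946 genes were higher and 607 lower without overlap for EV-depleted young serum minus saline. For young serum minus saline 620 (4.789%) were higher and 575 lower, and for EV-depleted minus whole young serum 535 (4.133%) and 421. The medians over all these genes were -0.02, -0.02 and -0.004 in that order. The 8 genes were chosen with their differences known, so nothing is read from their counts.

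**Figure D4:**
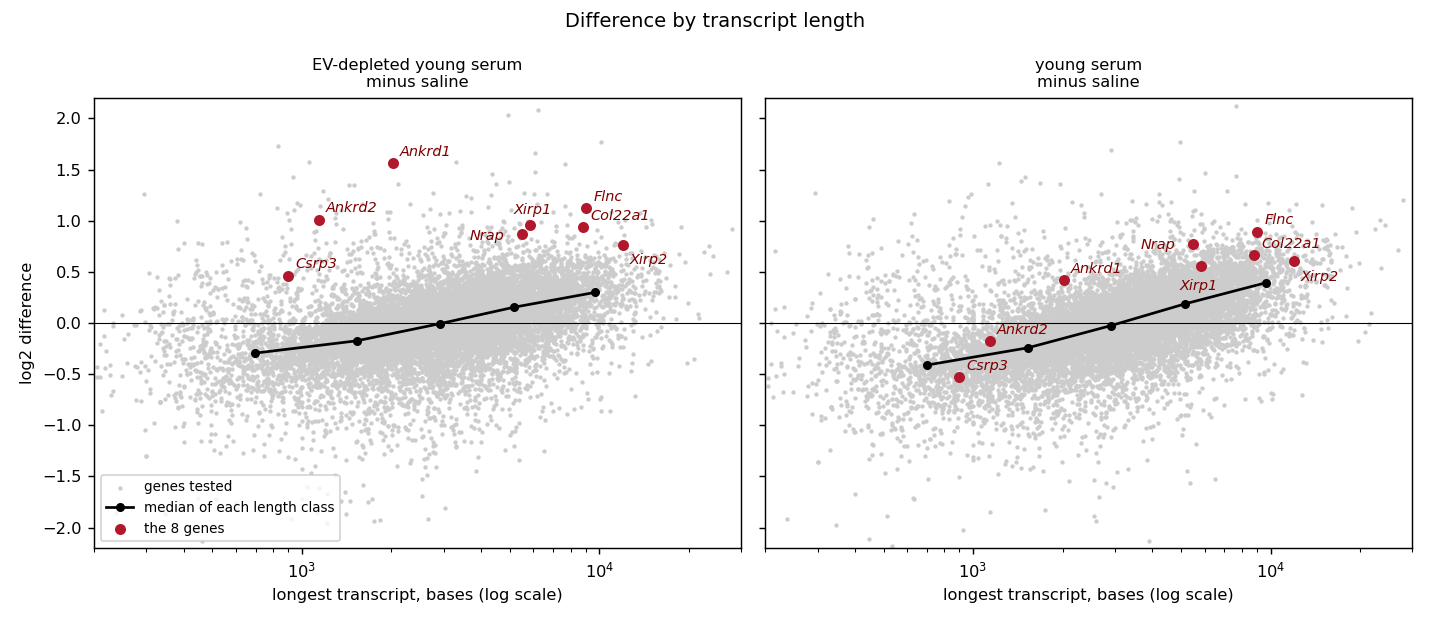
Log2 difference of each tested gene against the length of its longest transcript (log axis, bases) for EV-depleted young serum minus saline and young serum minus saline, with the median of 5 length classes as a black line and the 8 genes in red. The medians climb from -0.29 to 0.30 and from -0.41 to 0.39, and 16 and 20 of 12946 genes lie outside the axes.

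Without saline 4 and saline 6, the libraries with high adipocyte and slow fibre markers, 8 of 8 genes were higher with EV-depleted young serum than with saline, and 7 of 8 with young serum. This setting too was chosen after seeing the data, and the genes were chosen with their differences known, so nothing is read from these counts. With all libraries, 49.65% and 47.48% of all genes tested were higher, and 83.33% and 87.25% of those over 8000 bases. Such shares were not taken without saline 4 and saline 6. In this setting the medians of the 8 genes were 0.86 and 0.41 on the log2 scale. Nrap differed from saline by 0.75 with EV-depleted young serum and by 0.66 with young serum, and Flnc by 0.88 and 0.65. Young serum minus saline was then 0.37 for Xirp2 and 0.15 for Ankrd1, against 0.61 and 0.42 with all libraries.

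Partners of these proteins were described from lists chosen with earlier results of these data known. Of 132 list entries tested, 0 passed the adjusted threshold in any comparison by limma. At an unadjusted p under 0.05, 26 were higher and 3 lower with EV-depleted young serum than with saline, where 6.49% and 5.59% of all genes tested were. With young serum against saline 29 were higher and 4 lower, where 10.5% and 11.4% of all genes were. With EV-depleted against whole young serum 14 were higher and 0 lower, where 1.75% and 0.478% of all genes were. Of the genes named below, Synpo2, Plec, Dmd, Lama2, Slc24a2, Col12a1, Igfn1, Ttn, Tead1, Amotl1 and Mrtfb have transcripts over 8000 bases. The median log2 difference of that class was 0.30 for EV-depleted young serum minus saline and 0.39 for young serum minus saline. The part of length in the values of these genes was not tested.

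Among 23 genes of Z-disc and filamin partners, 8 were higher and 2 lower at an unadjusted p under 0.05 with EV-depleted young serum against saline, 3 higher and 0 lower with young serum against saline, and 5 higher and 0 lower between the sera. By direction alone, 15 were higher and 8 lower, and 14 higher and 9 lower, in the 2 comparisons with saline. The genes named next had the smallest p against saline, and the 2 lower genes are not among them. Hspb7, a small heat shock protein that binds filamin C, averaged 662 ± 144 CPM with EV-depleted young serum, 358 ± 39.9 CPM with young serum and 293 ± 133 CPM with saline (SD, n = 3, 4 and 4). Fhl1, a LIM protein of the sarcomere, averaged 1124 ± 420, 658 ± 184 and 589 ± 186 CPM in those groups. Both thus shared with Ankrd1 a mean with young serum closer to saline than to EV-depleted young serum. Synpo2, an actin bundler of the Z-disc, was at 738 ± 70.8, 766 ± 42.4 and 558 ± 64.5 CPM, and Synpo2l, its relative, at 241 ± 27.8, 243 ± 4.88 and 200 ± 16.2 CPM. Sync, a desmin-binding filament protein, was at 31.5 ± 8.42, 33.3 ± 6.62 and 18.1 ± 8.63 CPM. These 3 were nearly level between the sera.

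The membrane attachment complexes held 23 genes, of which 4 were higher and 1 lower with EV-depleted young serum against saline, and 7 higher and 1 lower with young serum against saline, at an unadjusted p under 0.05. The lower one was Vasp in both, a regulator of actin growth at adhesions that most cell types use, at 28.0 ± 1.75 CPM with EV-depleted young serum, 32.4 ± 3.99 CPM with young serum and 50.1 ± 6.48 CPM with saline. Macrophage markers (6 of 6 detected) summed to 52.0 to 90.8 CPM with EV-depleted young serum, 36.9 to 112 CPM with young serum and 91.5 to 233 CPM with saline, and their part in the Vasp difference was not tested. Plec, the large linker plectin, averaged 790 ± 114, 878 ± 82.7 and 508 ± 108 CPM, and Dmd, dystrophin, 114 ± 55.6, 117 ± 16.6 and 57.5 ± 29.6 CPM. Their transcripts are 15455 and 14910 bases long, in the longest class. Itga7, the laminin-binding integrin chain of muscle with a transcript of 4020 bases, stood at 119 ± 13.2, 94.2 ± 1.69 and 96.7 ± 6.08 CPM. Vcl, vinculin, was at 75.6 ± 36.5, 86.4 ± 14.7 and 53.1 ± 25.3 CPM, and its groups overlapped. EV-depleted young serum also overlapped saline for Dmd, with a lowest value of 63.5 against a highest saline value of 96.9 CPM. It did so narrowly for Itga7, at 103.87 against 103.92 CPM.

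The myotendinous junction and its matrix held 13 genes beside Col22a1, and 0 of them passed even an unadjusted p of 0.05 with EV-depleted young serum against saline, with a median of 0.19. With young serum 4 were higher and 0 lower, and the median was 0.42. Tnmd, tenomodulin of tendon cells, was at 3.01 ± 1.47 CPM with EV-depleted young serum, 4.22 ± 1.46 CPM with young serum and 2.17 ± 1.06 CPM with saline. Col12a1, a collagen of tendon and fascia, was at 4.60 ± 2.89, 5.92 ± 1.93 and 3.12 ± 0.918 CPM, and Lama2, the laminin chain of the fibre's basement membrane, at 33.8 ± 9.12, 35.8 ± 5.10 and 24.8 ± 7.36 CPM. Slc24a2 and Adamts20 were near the filter, with group means between 1.17 and 2.54 CPM. EV-depleted young serum minus young serum was above 0 in 2 of these 13 genes, where it was above 0 in 51.3% of all genes tested, in 37.9% of those of 4000 to 8000 bases and in 23.9% of those over 8000 bases. The median transcript of the list is 5044 bases long.

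Myofibril assembly and thin filament genes numbered 23, of which 8 were higher and 0 lower with EV-depleted young serum against saline, 7 higher and 0 lower with young serum, and 4 higher and 0 lower between the sera, at an unadjusted p under 0.05. Fhod3, a formin that builds sarcomeric actin, averaged 65.6 ± 18.2, 61.0 ± 8.90 and 36.6 ± 10.7 CPM with EV-depleted young serum, young serum and saline. Cap2, which recycles actin, averaged 348 ± 40.2, 319 ± 20.01 and 232 ± 48.6 CPM. Myom3, an M-band protein of slow and intermediate fibres, was at 90.0 ± 20.2, 43.3 ± 19.6 and 41.8 ± 26.9 CPM, while Myom1, the general M-band protein, was at 1682 ± 32.7, 1849 ± 101 and 1435 ± 189 CPM. Klhl41, a kelch protein of myofibril assembly that binds Nrap, was at 641 ± 52.2, 589 ± 49.0 and 526 ± 62.9 CPM.

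Among 18 genes linked to titin's N2A region and to strain, 2 were higher and 0 lower with EV-depleted young serum against saline, and 2 higher and 1 lower with young serum, at an unadjusted p under 0.05. Igfn1, a Z-disc protein with immunoglobulin and fibronectin domains, averaged 117 ± 41.1 CPM with EV-depleted young serum, 36.2 ± 9.21 CPM with young serum and 18.8 ± 8.73 CPM with saline. Its log2 difference of 2.65 ± 0.36 for EV-depleted young serum minus saline had the adjusted p of 0.0684 by limma, which did not pass. Ankrd23, the third titin-binding ankyrin repeat protein, was at 2991 ± 420, 1902 ± 250 and 1798 ± 451 CPM, so its 0.76 ± 0.19 and 0.10 ± 0.18 from saline stood beside 1.56 and 0.42 for Ankrd1. Ttn, titin itself, varied widely, at 6988 ± 3984, 8265 ± 1421 and 5124 ± 2029 CPM. Ky, a protease-like partner of filamin C, was at 277 ± 65.8, 355 ± 47.3 and 245 ± 56.9 CPM, Capn3, the muscle calpain bound to titin, at 114 ± 17.99, 114 ± 3.92 and 95.8 ± 14.1 CPM, and Smpx, a small stretch-linked protein, at 218 ± 17.6, 176 ± 22.2 and 241 ± 77.5 CPM.

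The YAP and TEAD pathway, of which Ankrd1 is a textbook target, had 18 genes tested, with 3 higher and 0 lower at an unadjusted p under 0.05 for EV-depleted young serum against saline and 4 higher and 0 lower for young serum. Ccn1, another classical target, averaged 44.3 ± 15.8 CPM with EV-depleted young serum, 29.0 ± 2.73 CPM with young serum and 29.97 ± 1.83 CPM with saline. Tead1, the factor that binds the MCAT box, was at 211 ± 58.7, 224 ± 25.4 and 134 ± 33.2 CPM, with a transcript of 9964 bases. Amotl1, an angiomotin, was at 535 ± 165, 632 ± 102 and 389 ± 105 CPM, and Nf2, merlin, at 101 ± 12.3, 102 ± 3.51 and 75.8 ± 14.8 CPM. The SRF and MRTF pathway had 14 genes tested, with 1 higher and 0 lower for EV-depleted young serum against saline and 2 higher and 2 lower for young serum. By direction alone, 5 were higher and 9 lower in each, with medians of -0.08 and -0.14 on the log2 scale. Abra, an actin-binding protein of striated muscle, was at 195 ± 40.8, 123 ± 28.4 and 114 ± 46.8 CPM, and Srf at 112 ± 11.6, 122 ± 8.25 and 101 ± 8.89 CPM. Mrtfb, a coactivator of SRF, was at 29.9 ± 10.7, 38.1 ± 10.4 and 22.8 ± 5.11 CPM. Actb and Myl9, non-muscle actin and a smooth muscle light chain, were at 227 ± 6.67 and 31.6 ± 4.49 CPM with EV-depleted young serum, 214 ± 13.4 and 34.7 ± 4.15 CPM with young serum, and 388 ± 252 and 44.6 ± 15.0 CPM with saline.

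For each of the 8 genes, the genes with the most similar pattern over the 11 libraries were named by the highest Pearson r of log2(CPM + 1), as a description over libraries that share group and length trend. They were Uaca (0.98) for Nrap, Efcab2 (0.93) for Xirp1, Limch1 (0.97) for Xirp2, Gcnt2 (0.96) for Col22a1, Fhod3 (0.96) for Flnc, Ttc12 (0.94) for Ankrd1, Smtnl1 (0.94) for Ankrd2 and Rap1gap (0.96) for Csrp3. The next in order were Zfp651 (0.95), Tal2 (0.92), Pde7b (0.97), Nfe2l1 (0.95), Arhgap20 (0.96), Dnaja4 (0.94), Camta1 (0.94) and Pcbp4 (0.90), for the 8 genes in that order. After each group's mean was subtracted, r was 0.97 for Limch1 with Xirp2, 0.96 for Camta1 with Ankrd2, 0.94 for Rap1gap with Csrp3 and 0.93 for Fhod3 with Flnc. It was 0.77 for Uaca and 0.54 for Zfp651 with Nrap, whose pattern was for the most part the step between serum and saline.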

How the data were processed

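RNA of 11 tibialis anterior libraries was measured by sequencing. The authors deposited 2 tables of 18269 genes, 1 of CPM and 1 of TPM. Per the submitters' processing notes, the build was mm10 and the tools included FastQC, STAR and DESeq2, with no version or role stated. As read from the values, the deposited CPM sum to 1000000 per library with an offset of 0.0001, and the authors' TPM are CPM divided by the genomic span of the gene, scaled to a total of 288820 per library, so TPM was not used further. The labels do not state whether counting used strand. The smallest steps between CPM values give the worth of 1 read, but only 75.6% to 79.0% of the low values were whole multiples of it within 0.1 reads, too few to rebuild counts.

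Levels were analysed as log2(CPM + 1), which understates the fold changes of low genes. A gene was kept if 3 or more libraries had 1 CPM or more, which left 13187 and removed 5082. The 3 groups, taken from the injection label, were fitted in 1 model with limma 3.58.1 in R 4.3.3 (eBayes, variance trended on mean level), two-sided, with Benjamini-Hochberg adjustment at 0.05. The fit was checked on simulated data with independent noise for each gene. These data held no length trend, so the check says nothing of the fit under such a trend. Transcript lengths came from GENCODE M21, whose gene starts equalled the deposited ones for 99.4% of 17862 symbols, and the end positions given are the deposited ones minus 1. The length trend was a lowess (span 0.3) of each library's deviation from the gene mean on log2 length, over the 12946 genes with a length.

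The members and lists were chosen with earlier results of these data known. From each list, the 3 genes with the smallest unadjusted p in each comparison with saline were named, together with Ankrd23, Igfn1, Ttn, Vcl and Klhl41, and for each member the 2 genes of highest r outside the members. Alternatives were other pseudocounts and filters, median-of-ratios scaling, 2-group fits, no variance trend, a replicate block, and each library left out. Removing the length trend and leaving out both saline 4 and saline 6 were added after seeing the data. Protein sequences were not used here, so the planned comparison of proteins was not run.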

Additional observations from a re-analysis of the deposited data

Results flagged for a closer look

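In 4 of the 38 groups of 4 libraries checked, 1 library stood far from the others of its group, where chance alone gives about 1 in 20. All 4 were sums of marker genes, and none was a value of the 8 genes themselves. Slow fibre markers summed to 5545 CPM in saline 6, with 256 to 477 CPM in the other saline libraries. Adipocyte markers summed to 5309 CPM in saline 4, with 224 to 497 CPM in the other saline libraries. Fast fibre markers summed to 147729 CPM in young serum 4, with 135357 to 136425 CPM in the other young serum libraries. Regenerating fibre markers summed to 128 CPM in young serum 3, with 64.7 to 74.1 CPM in the other young serum libraries. Ankrd2 in saline 6, at 177 CPM with 32.5 to 59.3 CPM in the other saline libraries, stayed just under the limit.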

How the results depend on the processing

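Of 504 values of the 8 genes under the alternatives run, 192 could not move by construction (another filter, variance model or fit, or a library of the group not compared left out). Of the other 312, 305 moved by less than the spread between replicates. The remaining 7 came from removing the length trend and are given in the report (Nrap and Col22a1 against saline in both comparisons, and Xirp1, Xirp2 and Flnc in young serum minus saline). Leaving out 1 of the 3 or 4 libraries of a group cannot shift its mean by as much as that spread. Values with 1 library left out were thus bound to count as unmoved, and their number says nothing of stability. Signs changed in 5 of the 312. Ankrd2 in young serum minus saline, at -0.17, was 0.31 without saline 6, 0.12 with the length trend removed, 0.08 without both saline 4 and 6, and 0.47 with a replicate block, and Flnc in EV-depleted young serum minus young serum was -0.04 without EV-depleted young serum 4. Scaling by median of ratios changed no sign among the 8 and moved the median of all genes by less than 0.1. Genes past adjusted p of 0.05 in EV-depleted young serum minus saline, 0 in the fit reported, numbered 3 among genes with a mean of at least 5 CPM, 6 with a replicate block, 2 without both saline 4 and 6, and 0 to 5 with 1 library left out. In young serum minus saline they numbered 0 to 251 with 1 library left out (251 without saline 2 and 1 without saline 6), and in EV-depleted young serum minus young serum they numbered 0 under every alternative run. Genes whose groups do not overlap numbered 1605 in young serum minus saline (up to 3760 with 1 library left out, and 3298 without both saline 4 and 6). They numbered 979 in EV-depleted young serum minus saline (up to 2828, and 2428) and 806 in EV-depleted young serum minus young serum (up to 3068). Smaller groups overlap less often by construction. The cause of the other shifts was not tested. Same-numbered libraries deviated together with r of -0.28 to 0.30 over 9 pairs, and 2 of 9 libraries correlated best with their own number, so the replicate block rests on a number only. Numbers 1 and 6 belong to 1 library each, so the block also takes young serum 1 and saline 6 out of the differences. The Ankrd2 sign changes without saline 6, without both saline 4 and 6, and with the block thus all rest on leaving saline 6 out.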
